A study of Mus musculus with 16 samples.

Results

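Messenger, transfer and ribosomal RNAs carry chemical marks on their bases, and 10 mouse genes for enzymes and cofactors that write or bind these marks are described here in liver. They are Pcif1 (m6Am at the mRNA cap), Mettl5 and its partner Trmt112 (m6A in ribosomal RNA), Nsun2 and the reader Alyref (m5C), Trmt6 and Trmt61a (m1A in transfer RNA), Pus7 and Dkc1 (pseudouridine) and Adar (inosine). They were chosen by name from the classes of mark, with earlier results of these data known. The deposited tables list 78317 genes, of which 14781 had enough counts to be tested, and all 10 members were among those tested. Liver polyA RNA was sequenced in wild-type C57BL/6J mice in 4 groups of 4 libraries. These groups were females and males on a normal diet (LabDiet 5053) and females and males on a high fat diet (Research Diets D12492). The labels state 4.5% of calories as fat for the normal and 60% for the high fat diet. Mice arrived at 6 weeks of age and ate their diet for 10 weeks. The diets come from different makers, so fat and the other ingredients cannot be told apart. The stated question of the series is what the high fat diet does in each sex.

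The marks work in different ways. Adar deaminates adenosine to inosine in double-stranded RNA, which keeps a cell's own double-stranded RNA from being sensed as viral, and one of its 2 protein forms is made from an interferon-inducible promoter. Nsun2 methylates cytosines in transfer RNAs and in some mRNAs, and Alyref, an adaptor of mRNA export, binds m5C. Dkc1 is the catalytic subunit of the H/ACA particles that pseudouridylate ribosomal and small nuclear RNA with a guide RNA, and it is also part of telomerase. Pus7 makes pseudouridine without a guide RNA. Trmt61a is the catalytic and Trmt6 the RNA-binding subunit of the enzyme for m1A at the T-loop of transfer RNAs. Mettl5 is stable only when bound to Trmt112, which also serves several other methyltransferases. These tables hold RNA levels, not the marks themselves nor enzyme activity.

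Each library held 22228115 to 41420589 expected read counts. Scaling factors by the TMM method were 1.0527 to 1.1346 in females on the high fat diet and 0.9255 to 1.0168 in the other 12 libraries, so a value in females depends on whether this scaling is applied. CPM values below are read counts scaled to a common library total, with TMM factors unless another unit is named. Male high fat diet replicates 2 and 3 were more alike than any other pair, with a chi-square statistic of 4 per gene against 20.7 or more elsewhere. The labels list them as separate samples and they were counted so. The labels do not say that each library is 1 animal, so p-values measure the spread between libraries. All 6 hepatocyte markers were detected in every group, with a summed level between 60300 and 123000 CPM in each library. Alb had the highest counts of the 6, with up to 3797179 in a library, against at most 461736 for each other marker, so the sum mainly follows Alb. In bulk liver, fewer cells of a type and less RNA per cell cannot be told apart.

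The members differed widely in level. In TPM, a unit that divides by transcript length, Nsun2 was highest with a mean of 37.3 TPM over the 16 libraries, above 86.3% of the tested genes. Trmt112 followed at 30.4 and Mettl5 at 21.9 TPM. Dkc1 had a mean of 8.53, Trmt6 6.73, Adar 5.08 and Pus7 4.85 TPM. Pcif1 at 2.59, Alyref at 2.47 and Trmt61a at 1.38 TPM were lowest. Adar exceeded Pus7 in 8 of the 16 libraries and Pcif1 exceeded Alyref in 8, so neither pair has 1 order over all libraries. The order of Adar and Pus7 differed between groups: Adar was above Pus7 in all 4 female high fat diet libraries, in 2 male high fat diet libraries and in 1 library of each normal diet group. Pcif1 was above Alyref in 3 libraries of each high fat diet group and in 1 of each normal diet group. Every other neighbour in this order stood above the next in 13 to 16 libraries. Read counts ran from 37 for Trmt61a to 3941 for Nsun2, and the mean coefficient of variation within groups from 26.8% for Trmt61a to 2.94% for Nsun2. The data are therefore least precise for Trmt61a.

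**Figure D1:**
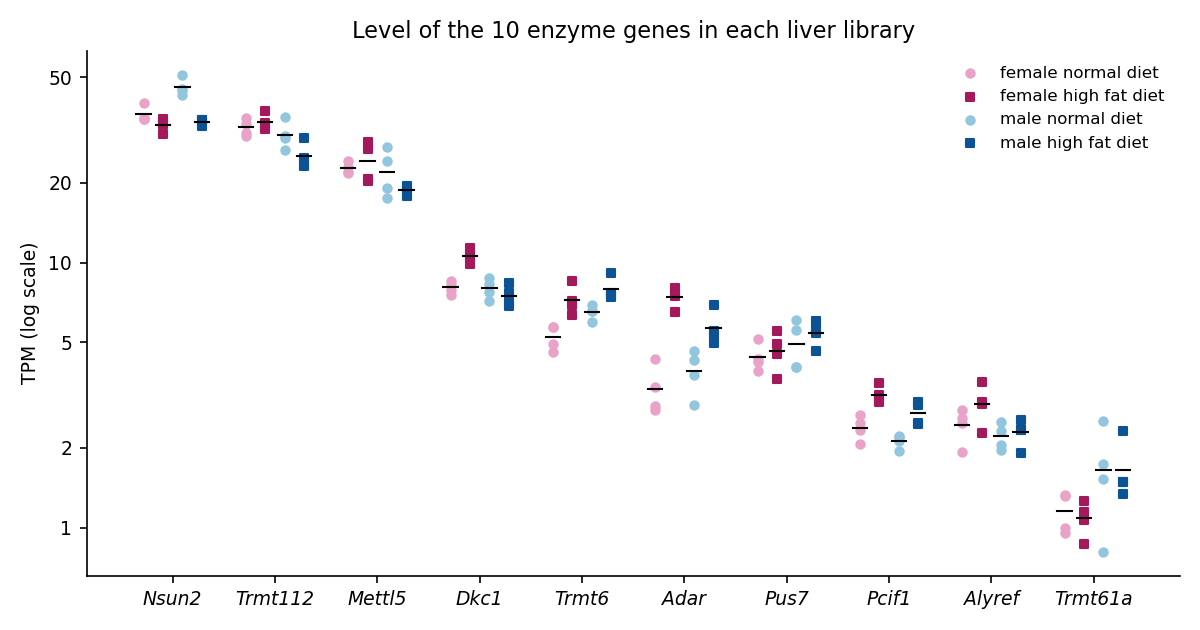
Level of each member in each library in TPM on a log axis, with the 16 libraries coloured by group. Nsun2, Trmt112 and Mettl5 lie highest and Trmt61a lowest, and the Adar points of the high fat diet groups lie above those of the normal diet groups.

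Adar rose and Nsun2 fell on the high fat diet in both sexes, and no other member was called for diet in either. In females that is 2 of 10 members, against 11.5% of all tested genes called by the edgeR quasi-likelihood test with Benjamini-Hochberg adjustment over all 14781 genes. In males it is also 2 of 10, against 11.4%. All adjusted p-values below come from this test unless another is named, each log2 fold change is given with its standard error, and a gene is called at an adjusted p under 0.05. Over all tested genes, 1.74% were called higher in both sexes and 1.78% lower in both. The median log2 fold change of the 10 members was -0.06 in females and -0.07 in males, beside 0 and 0.01 over all tested genes. The CPM of the diet groups did not overlap for 2 members in females, against 18.3% of tested genes. In males they did not overlap for 4 members (Adar, Nsun2, Pcif1 and Trmt6), against 18.5%. The contrasts within a sex share no library with those of the other sex, whereas each diet contrast shares libraries with each sex contrast.

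**Figure D2:**
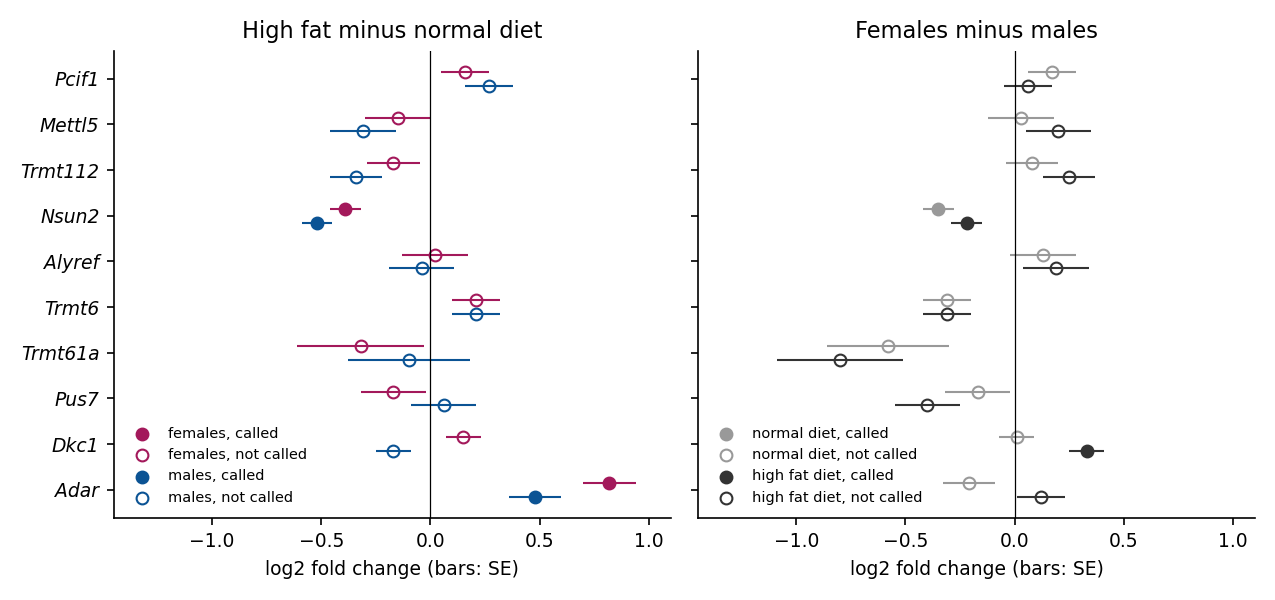
Log2 fold change with its standard error for each member, for high fat minus normal diet in each sex (left) and for females minus males on each diet (right). Filled points are called: Adar is above 0 and Nsun2 below 0 in both sexes on the left, and Nsun2 is below 0 and Dkc1 above 0 (on the high fat diet) on the right.

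Adar (ENSMUSG00000027951.17, chromosome 3) has 3 annotated start windows in RefSeq (build GRCm38.p6, older than the GRCm39 build of the deposited tables), each of 300 bases. The window with the motif of interferon-responsive promoters is shown beside one of the other 2, which hold none, since Adar and interferon genes rose in the same groups. Capitals mark matches to GAAANNGAA, the core of the interferon response element, searched on both strands. The window without a match is chr3:89714988-89715287 and the one with matches is chr3:89730468-89730767, both on the + strand.
Adar window without a match: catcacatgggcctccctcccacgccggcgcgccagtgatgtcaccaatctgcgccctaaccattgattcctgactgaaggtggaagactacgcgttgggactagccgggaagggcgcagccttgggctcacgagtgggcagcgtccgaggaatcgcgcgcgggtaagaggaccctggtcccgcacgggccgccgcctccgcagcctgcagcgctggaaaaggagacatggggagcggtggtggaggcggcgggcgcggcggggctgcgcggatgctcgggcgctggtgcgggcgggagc
Adar window with matches: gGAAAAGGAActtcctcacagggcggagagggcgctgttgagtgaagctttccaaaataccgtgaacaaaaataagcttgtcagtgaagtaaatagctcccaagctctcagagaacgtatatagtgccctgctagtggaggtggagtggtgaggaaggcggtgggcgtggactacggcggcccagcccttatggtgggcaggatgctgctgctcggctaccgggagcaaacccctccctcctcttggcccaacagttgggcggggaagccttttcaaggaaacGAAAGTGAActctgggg
The matches are GAAAAGGAA at bases 2 to 10 and GAAAGTGAA at bases 284 to 292, of which the latter lies 34 bases into the transcript. The motif was in 8.56% of all 32851 windows and in the windows of 9.76% of 27025 genes. Of the 9 members with a window (Trmt6 had none), Adar alone held it, and so did 9 of the 13 interferon genes below that had a window. Adar had 3 windows and each other member 1 or 2, so more sequence was searched for Adar. A match describes these letters only, and the gene-level tables sum all Adar transcripts, so they do not tell which start was used.

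In females, Adar had 23.2, 22.6, 21.2 and 23.1 CPM in the high fat diet libraries and 12.4, 11, 14.6 and 13.3 CPM in the normal diet libraries. Every high fat diet library was above every normal diet one, and the means were 22.5 ± 0.904 and 12.8 ± 1.51 CPM (SD, n = 4 each). The edgeR log2 fold change was 0.82 ± 0.12 (adjusted p = 0.000269). In males, Adar had 19.2, 18.8, 19.7 and 25.1 CPM on the high fat diet and 12.6, 15.8, 15.1 and 15.8 CPM on the normal diet. These groups did not overlap either, although 1 male high fat diet library, replicate 4, stood above the other 3. The male means were 20.7 ± 2.94 and 14.8 ± 1.5 CPM, and the edgeR log2 fold change was 0.48 ± 0.12 (adjusted p = 0.0117). Without replicate 4 of the male high fat diet the male change was 0.37 (edgeR adjusted p = 0.0499), and in log2(TPM + 1) it was 0.45 and not called (limma, adjusted p = 0.0617). With the similar male replicates 2 and 3 of that diet merged by their mean it was 0.51 (edgeR adjusted p = 0.0183). The female call held in each of 29 alternative settings, with log2 fold changes of 0.76 to 1.14. The rise in females minus that in males was 0.34 ± 0.16, which was not called (edgeR adjusted p = 0.39). Between the sexes Adar was not called, with a log2 difference, females minus males, of -0.21 ± 0.12 on the normal and 0.12 ± 0.11 on the high fat diet (edgeR adjusted p = 0.228 and 0.458). Adar shares up to 1014 exon bases with Chrnb2 on the other strand, and the counting is not stated to use strand, so reads of the 2 genes may not be parted.

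The other inosine enzymes did not move as Adar did. Adarb1, a second editing deaminase of double-stranded RNA, fell in both sexes. It had 8.49 ± 1.28 CPM on the high fat and 12.2 ± 1.54 CPM on the normal diet in females (SD, n = 4 each), a log2 fold change of -0.52 ± 0.14 (edgeR adjusted p = 0.0224). In males the means were 9.75 ± 1.36 and 15.1 ± 1.73 CPM, a log2 fold change of -0.63 ± 0.14 (edgeR adjusted p = 0.00726). The Adarb1 diet groups did not overlap in either sex. Its female call held in 22 of 29 settings and its male call in 26, and its direction in all scalings. Of the 5 listed genes of this class besides Adar, 3 had enough counts to be tested, and Adarb1 was the only one called. Adarb2 and Adat3 were too low to be tested, with at most 4 and 9 counts in a library.

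**Figure D3:**
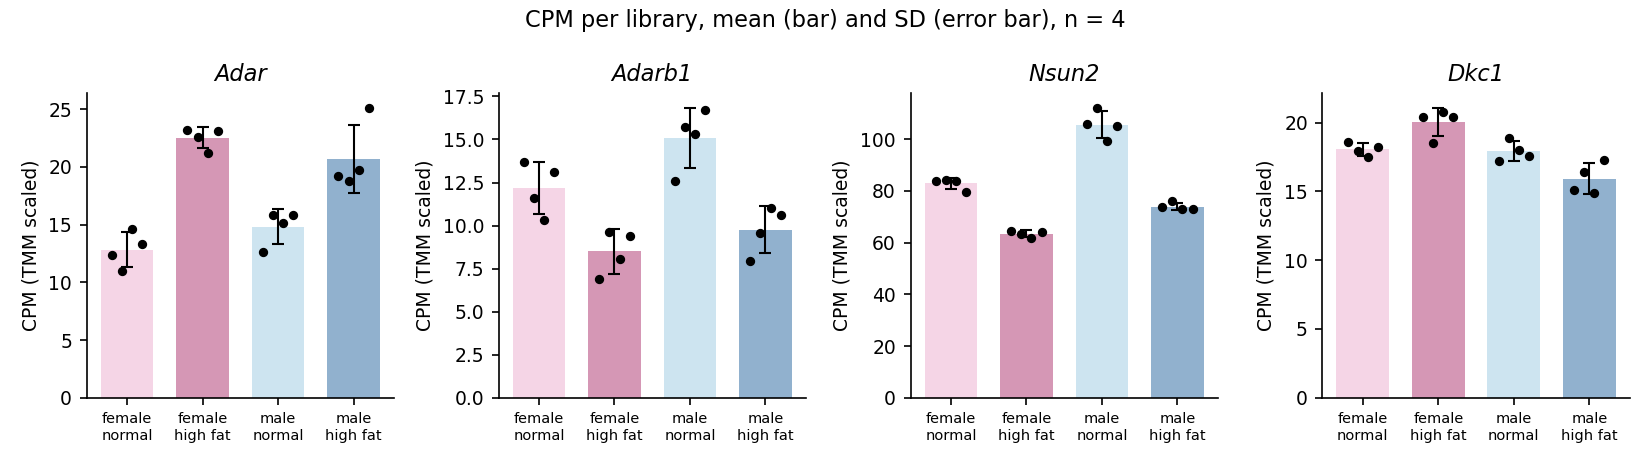
CPM of Adar, Adarb1, Nsun2 and Dkc1 in the 4 groups, with bars for the mean, error bars for the SD (n = 4) and points for libraries. In both sexes Adar is higher and Adarb1 and Nsun2 are lower on the high fat diet, while Dkc1 differs between the sexes on the high fat diet.

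Interferon-responsive genes were higher on the high fat diet in the same libraries as Adar. Of 20 listed interferon genes, all tested, 15 rose and none fell in females, and 10 rose and none fell in males, beside 5.74% and 6.03% of all tested genes called higher. Their median log2 fold change was 1.24 in females and 0.84 in males. Ifit1, an interferon-induced protein that binds foreign cap structures, went from 13.7 ± 3.03 to 50.4 ± 14.1 CPM in females (SD, n = 4 each). This is a log2 fold change of 1.88 ± 0.2 (edgeR adjusted p = 2.7e-05). In males Ifit1 went from 8.18 ± 1.64 to 22.5 ± 3.07 CPM, a log2 fold change of 1.46 ± 0.2 (edgeR adjusted p = 0.000239). Rsad2, the antiviral enzyme viperin, rose by 1.55 in females and 1.11 in males on the log2 scale. Ddx58, the sensor RIG-I of viral double-stranded RNA, rose by 0.87 and 0.75. The count of called interferon genes ran from 10 to 20 over the settings in females and from 5 to 12 in males, with none called lower.

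The relation of Adar to the summed level of the interferon genes within groups was not tested. The sum was 901, 534, 565 and 1110 CPM in the 4 female high fat diet libraries, where Adar had 23.2, 22.6, 21.2 and 23.1 CPM in the same order. In the male high fat diet libraries the sum was 503, 400, 403 and 510 CPM, and the library with the highest sum, replicate 4, also had the highest Adar. On the normal diet the sum lay between 287 and 373 CPM in females and between 288 and 293 CPM in males. On the high fat diet it was higher in every female than in every male library (exact two-sided permutation test, p = 0.0286). In that contrast 7 of the 20 genes were called higher and none lower, where 20.4% of all tested genes were called. Adar was not called there (0.12 ± 0.11, edgeR adjusted p = 0.458). Markers of Kupffer cells and macrophages moved with the diet in females: the sum of 10 markers, all detected in every group, was 530 to 777 CPM on the high fat and 343 to 483 CPM on the normal diet (exact two-sided permutation test, p = 0.0286, the smallest possible). In males these sums overlapped, at 274 to 507 and 299 to 473 CPM (exact permutation p = 0.8). By single genes, 4 of the 10 macrophage markers rose in females (Cd5l, Cd68, Csf1r and Gpnmb) and 3 in males (Cd68, Trem2 and Gpnmb), and none fell in either. The 6 stellate cell and fibroblast markers, all detected, summed to 270 to 388 CPM on the high fat and 216 to 258 CPM on the normal diet in males (exact permutation p = 0.0286), with none of the 6 called alone. In females their sums overlapped, at 308 to 344 and 319 to 329 CPM, while Des and Col1a1 among them rose. The part of these markers in the Adar results was not tested. T and B cell markers summed to 9.38 CPM or less in every library.

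**Figure D4:**
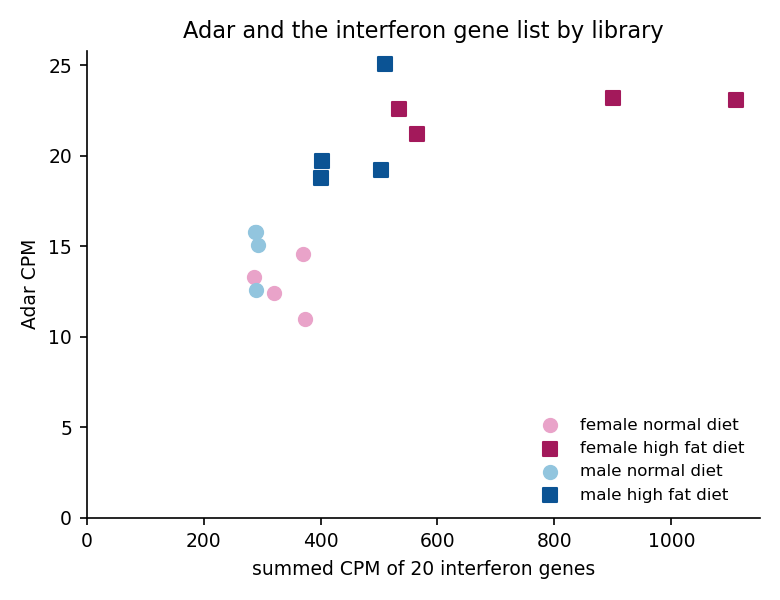
Adar in CPM against the summed CPM of the 20 interferon genes, 1 point per library, coloured by group. The high fat diet libraries of each sex lie above and to the right of the normal diet ones. The 4 female high fat diet libraries lie between 21.2 and 23.2 CPM of Adar, at sums of 534 to 1110 CPM.

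Nsun2 (ENSMUSG00000021595.19, chromosome 13) was lower on the high fat diet and lower in females than in males. In males it had 73.8, 75.9, 73 and 72.8 CPM on the high fat diet and 106, 112, 99.2 and 105 CPM on the normal diet. The groups were far apart relative to their spread, with means of 73.9 ± 1.43 and 106 ± 5.44 CPM (SD, n = 4 each). The male log2 fold change was -0.52 ± 0.07 (edgeR adjusted p = 0.000302), and it was called in each of 29 settings. In females Nsun2 had 64.5, 63.3, 61.6 and 64.2 CPM on the high fat diet and 83.9, 84.3, 83.6 and 79.6 CPM on the normal diet. These groups did not overlap, with means of 63.4 ± 1.3 and 82.8 ± 2.18 CPM and a log2 fold change of -0.39 ± 0.07 (edgeR adjusted p = 0.00339). The diet changes in the sexes differed by 0.13 ± 0.11, which was not called (edgeR adjusted p = 0.65). The summed level of the 6 hepatocyte markers was lower on the high fat diet as well. It was 85500 to 101000 against 109000 to 123000 CPM in females, and 60300 to 83300 against 88400 to 96100 CPM in males (exact two-sided permutation test, p = 0.0286 in each). Of the 6 markers, Hnf4a was called lower in females, and Alb, Serpina1a and Hnf4a were called lower in males, with none called higher in either. The part of the hepatocyte sum in the Nsun2 and Adar results was not tested. Nsun2 shares 165 exon bases with Tent4a and 215 with Gm17108 on the other strand.

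The female fall of Nsun2 depended on the scaling and the male fall did not. Without TMM factors the female means were 69.6 ± 3.82 CPM on the high fat and 79.6 ± 2.95 CPM on the normal diet, a log2 fold change of -0.19 (edgeR adjusted p = 0.0961). In TPM they were 33 ± 1.84 and 36.2 ± 2.48, the libraries overlapped, and the change in log2(TPM + 1) was -0.13 (limma, adjusted p = 0.276). These settings move the median of all genes in females by 0.192 and 0.117, so Nsun2 remained below the median gene in each. With TPM centred on each library's median, a setting added after the data were seen, the female change was -0.46 (limma, adjusted p = 0.000865). In males the TPM means were 34 ± 0.842 and 46.1 ± 3.56 and did not overlap, and the change without TMM factors was -0.42 (edgeR adjusted p = 0.00207). The same choice turns the balance of all called genes in females, from 848 higher and 852 lower to 2348 higher and 260 lower in log2(TPM + 1).

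**Figure D5:**
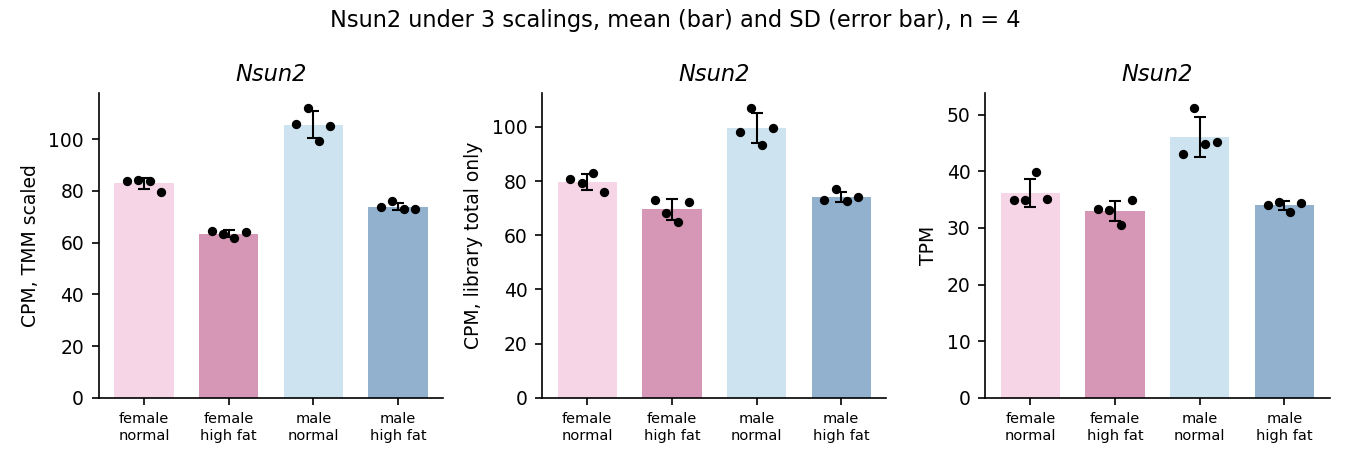
Nsun2 in the 4 groups as TMM-scaled CPM, CPM without TMM factors and TPM, with bars for the mean, error bars for the SD (n = 4) and points for libraries. The male diet groups stay apart in each unit, while the female groups are apart in both CPM units, by less without the factors, and overlap in TPM.

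Between the sexes, Nsun2 was lower in females on the normal diet, where it was the 1 called member of 10 (15.7% of all tested genes were called). The log2 difference, females minus males, was -0.35 ± 0.07 (edgeR adjusted p = 0.00424), and the libraries did not overlap. It was called in 28 of 29 settings and lost with no filter on low counts (edgeR adjusted p = 0.0705). Marker sums differed between the sexes on this diet too. The hepatocyte sum was higher in females (109000 to 123000 against 88400 to 96100 CPM). So was the stellate cell and fibroblast sum (319 to 329 against 216 to 258 CPM), both without overlap (exact permutation p = 0.0286 each). None of the 6 hepatocyte markers was called alone, with a median log2 difference of -0.04. Lrat and Dcn of the stellate cell list were called higher. The part of these sums in the Nsun2 difference was not tested. On the high fat diet Nsun2 was again lower in females in every library, by a log2 difference of -0.22 ± 0.07 (edgeR adjusted p = 0.0445). That last call held in 4 of 29 settings only, and in log2(TPM + 1) the difference was -0.04 (limma, adjusted p = 0.753). With the similar male replicates 2 and 3 merged by their mean it was -0.2 and not called (edgeR adjusted p = 0.116).

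Other m5C methyltransferases showed both directions. Of 7 listed, 6 were tested, and in females 1 of these fell while in males 2 rose and 2 fell. Nsun4, a mitochondrial ribosomal RNA methyltransferase, fell with the high fat diet in females (log2 fold change -0.35 ± 0.1, edgeR adjusted p = 0.0373) and in males (-0.39 ± 0.1, edgeR adjusted p = 0.0214). Like Nsun2, Nsun4 was lower in females than in males on both diets, by -0.38 on the normal and -0.35 on the high fat diet (edgeR adjusted p = 0.017 and 0.0253). The female diet call of Nsun4 held in 16 of 29 settings and the male one in 19. Nop2, the nucleolar m5C enzyme of the large ribosomal RNA, went from 20.1 ± 3.76 to 12.5 ± 2.39 CPM in males, a log2 fold change of -0.7 (edgeR adjusted p = 0.00933). In log2(TPM + 1) with no filter, none of these other methyltransferases was called lower in males. Trdmt1, which methylates cytosine in a few transfer RNAs, rose in males from 2.14 ± 0.342 to 4.82 ± 0.985 CPM, a log2 fold change of 1.17 (edgeR adjusted p = 0.0015). Nsun6, another transfer RNA methyltransferase, rose by 0.61 in males (edgeR adjusted p = 0.0496), a call that held in 8 of 29 settings.

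Alyref (ENSMUSG00000025134.3) showed no detectable change. Its libraries ranged from 5.36 to 8.73 CPM over all groups and overlapped in each contrast. The log2 fold change with diet was 0.02 ± 0.15 in females and -0.04 ± 0.15 in males (edgeR adjusted p = 0.955 and 0.904). An interval of 2 standard errors reached from -0.28 to 0.32 in females and from -0.34 to 0.26 in males. Between the sexes Alyref had log2 differences of 0.13 ± 0.15 on the normal and 0.19 ± 0.15 on the high fat diet, neither called. Alyref2 is a close copy, and with the counts of both summed the changes were 0.08 and -0.01. Of 12 other genes of m5C reading and mRNA export, all tested, 1 fell in females and 2 in males, and none rose in either. These were Thoc7 of the THO complex in females (-0.46), and in males Ybx1, an m5C-binding protein (-0.29), and Nxf1, the mRNA export receptor (-0.46). The median change of this list was -0.13 in females and -0.08 in males. With only the groups compared in the fit, no gene of the list was called lower in either sex.

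Dkc1 (ENSMUSG00000031403.15, chromosome X) was higher in females than in males when both ate the high fat diet, with no detectable difference between the sexes on the normal diet. High fat diet libraries had 20.4, 18.5, 20.8 and 20.4 CPM in females and 15.1, 16.4, 14.9 and 17.3 CPM in males. Every female library was above every male one, with means of 20 ± 1.02 and 15.9 ± 1.13 CPM (SD, n = 4 each). The log2 difference was 0.33 ± 0.08 (edgeR adjusted p = 0.011), and it was called in 28 of 29 settings. Dkc1 and Nsun2 were the 2 of 10 members called in this contrast, in which 20.4% of all tested genes were called. On the normal diet Dkc1 had 18.6, 17.9, 17.5 and 18.2 CPM in females and 17.2, 18.9, 18 and 17.6 CPM in males. These overlapped, with a log2 difference of 0.01 ± 0.08 (edgeR adjusted p = 0.955). The diet changes of Dkc1 were 0.15 ± 0.08 in females and -0.17 ± 0.08 in males, neither called. Their difference, the diet by sex interaction, was 0.32 ± 0.12 and was not called either (edgeR adjusted p = 0.259). In log2(TPM + 1) the female diet change of Dkc1 was 0.35 and called (limma, adjusted p = 0.0131). With TPM centred on the median it was the male fall that was called (-0.27, limma, adjusted p = 0.0419), and the female change was 0.06. Markers of dividing cells were higher in females on the high fat diet, where 8 markers, all detected, summed to 41.6 to 58.4 CPM in females and 34 to 38.5 CPM in males (exact permutation p = 0.0286). The sums of Kupffer cell and macrophage markers (530 to 777 against 274 to 507 CPM) and of hepatocyte markers (85500 to 101000 against 60300 to 83300 CPM) were higher there too, with the same p. By single genes, 5 of the 10 macrophage markers were called higher and none lower. Of the 6 hepatocyte markers, 1 was called higher and 1 lower (Alb and Hnf4a), with a median log2 difference of 0.09. Pancreatic acinar markers were lower in females there (7.97 to 11.3 against 12.7 to 36.4 CPM, exact permutation p = 0.0286), and of these 7 genes Pnlip, Cpa1, Amy2a5 and Ctrb1 were at 0 in every female library of that diet. The part of these markers in the Dkc1 difference was not tested. Dkc1 shares 45 exon bases with Mpp1 on the other strand.

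The protein partners of Dkc1 were not called with it. Nop10, Nhp2 and Gar1, the other core proteins of the H/ACA particle, were called in no contrast. Their log2 differences between the sexes on the high fat diet were 0.15 ± 0.12, -0.27 ± 0.15 and -0.12 ± 0.25. The 0.33 of Dkc1 lies within 2 standard errors of the values of Nop10 and Gar1, though not of Nhp2. Of the 6 listed genes of the particle and its assembly, Nolc1, a nucleolar chaperone of these particles, fell in females on the high fat diet (-0.61, edgeR adjusted p = 0.0357). Nolc1 was also lower in females than in males on that diet (-0.7, edgeR adjusted p = 0.0121). In log2(TPM + 1) no gene of this list was called lower in either of these contrasts. Naf1, an assembly factor, rose in males (0.54, edgeR adjusted p = 0.0433). With no filter on low counts, no gene of the list was called higher in males.

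Pus7 (ENSMUSG00000057541.15) was called in no contrast. It had 8.61, 12.8, 12.1 and 10.1 CPM in females on the high fat diet and 12.3, 14.5, 15.3 and 15.4 CPM in males, a log2 difference of -0.4 ± 0.15 (edgeR adjusted p = 0.0735). The groups overlapped by a narrow margin. This difference was called in 1 of 29 settings and ran from -0.48 to -0.19 over them. Its adjusted p was highest, at 0.428, by limma on log2(TPM + 1) with no filter. On the normal diet the difference was -0.17 ± 0.15. Its diet changes were -0.17 ± 0.15 in females and 0.06 ± 0.15 in males. The paralog Pus7l had a change of 0.58 ± 0.21 in males, also not called (edgeR adjusted p = 0.0787). Among the 11 other pseudouridine synthases, all tested, 1 rose and 1 fell in females and 1 rose in males. Rpusd4, a mitochondrial synthase, rose in females (0.54, edgeR adjusted p = 0.0169) and Pus10 fell there (-0.41, edgeR adjusted p = 0.0181). Trub2, a further mitochondrial synthase, rose in males (0.64, edgeR adjusted p = 0.0109), and Rpusd4 and Trub2 were called in 27 and 29 of 29 settings. The fall of Pus10 was less stable: in log2(TPM + 1) no gene of this list was called lower in females.

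Ribosome biogenesis genes, whose products make the ribosomal RNA that several members modify, fell in part on the high fat diet. Of 16 listed genes, all tested, 6 fell in males and 2 in females, with none called higher in either. In males the sum of the 8 dividing cell markers, all detected, was also lower, at 34 to 38.5 CPM against 39.8 to 47.7 CPM (exact permutation p = 0.0286). So was the hepatocyte marker sum given above. Their part in the male falls was not tested. The median log2 fold change was -0.35 in males and -0.21 in females, and 5.36% and 5.76% of all tested genes were called lower. Nop56, a core protein of the C/D particles that guide ribosomal RNA methylation, fell in both sexes (-0.64 in males and -0.52 in females), as did Wdr12 (-0.4 and -0.39), a factor of large subunit assembly. Fbl, the methyltransferase of the C/D particles (-0.39), and Ncl, the nucleolar protein nucleolin (-0.36), fell in males. The female direction depended on the scaling: without TMM factors and in log2(TPM + 1), 3 of the 16 were called higher in females and none lower. In males the count of called falls ran from 0 in log2(TPM + 1) with no filter to 7.

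Trmt6 (ENSMUSG00000037376.15) was lower in females than in males on both diets without passing the test. On the normal diet it had 11, 13.6, 10.2 and 12.8 CPM in females and 14.5, 15.1, 14.3 and 15.1 CPM in males, which do not overlap. The log2 difference was -0.31 ± 0.11 (edgeR adjusted p = 0.0636). On the high fat diet it had 13.7, 13.1, 12.8 and 15.6 CPM in females and 19.7, 16.1, 16.9 and 15.8 CPM in males, again with no overlap and a log2 difference of -0.31 ± 0.11 (edgeR adjusted p = 0.0529). That difference was called in 3 of 29 settings and ran from -0.37 to -0.12 over them. Its adjusted p was highest, at 0.492, by limma on log2(TPM + 1) with no filter. In TPM the sexes overlapped on this diet. For diet the change was 0.21 ± 0.11 in each sex (edgeR adjusted p = 0.227 in females and 0.22 in males). In females this change was called without TMM factors and in TPM without centring.

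Trmt61a (ENSMUSG00000060950.13), the partner subunit, had lower counts and a wider spread. On the high fat diet it had 1.72, 1.32, 1.83 and 1.45 CPM in females and 3.83, 2.21, 2.41 and 2.57 CPM in males. Every female library was lower, with a log2 difference of -0.8 ± 0.29 (edgeR adjusted p = 0.0604), which was called in 4 of 29 settings. On the normal diet the values overlapped, at 1.5 to 2.41 CPM in females and 1.48 to 4.6 CPM in males, with a difference of -0.58 ± 0.28 (edgeR adjusted p = 0.173). Single libraries moved that value, to -0.81 without male normal diet replicate 2, when it was called (edgeR adjusted p = 0.0477), and to -0.27 without male normal diet replicate 4. Both subunits had lower values in females on each diet, in comparisons that did not pass the test. The diet changes of Trmt61a were -0.32 ± 0.29 in females and -0.1 ± 0.28 in males. Of 8 other genes listed with the m1A writers and erasers, among them related enzymes and a partner protein, all were tested. Of these, 2 fell in females and none was called in males. Trmt10c, the methyltransferase of mitochondrial transfer RNA, fell in females (-0.45, edgeR adjusted p = 0.0221), as did Trmt10b (-0.59, edgeR adjusted p = 0.0301). These falls depended on the setting: the count of called falls in this list in females ran from 0, in log2(TPM + 1), to 3. Trmt61b, the mitochondrial paralog of Trmt61a, had changes of 0.12 ± 0.27 in females and -0.42 ± 0.27 in males, not called.

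Mettl5 (ENSMUSG00000051730.16) and Trmt112 (ENSMUSG00000038812.17) had lower means on the high fat diet in both sexes, in comparisons that did not pass the test. In males Trmt112 had 16.8, 13.5, 13.5 and 14.1 CPM with the high fat diet, against 22.9, 17.2, 17.6 and 15.9 CPM with the normal diet. These overlapped through 1 library of each diet, and the log2 fold change was -0.34 ± 0.12 (edgeR adjusted p = 0.0639). It was called in 5 of 29 settings, among them DESeq2. In females the change was -0.17 ± 0.12 (edgeR adjusted p = 0.353), and it was 0.06 in log2(TPM + 1). In males Mettl5 had 10.1 to 11.1 CPM with the high fat diet, against 10.1 to 17.5 CPM with the normal diet, a change of -0.31 ± 0.15 (edgeR adjusted p = 0.202). Without male normal diet replicate 1, which held the 17.5 CPM, it was -0.15. In females its change was -0.15 ± 0.15, and 0.07 in log2(TPM + 1). Between the sexes on the high fat diet, Trmt112 had a log2 difference, females minus males, of 0.25 ± 0.12 (edgeR adjusted p = 0.134), which was called in 6 of 29 settings, and in TPM every female library was above every male one. Its difference on the normal diet was 0.08 ± 0.12. Those of Mettl5 were 0.03 ± 0.15 on the normal and 0.2 ± 0.15 on the high fat diet, and none of these was called. Of 7 other genes, namely Zcchc4 (a second ribosomal RNA m6A writer) and partners of Trmt112, none was called for diet in either sex. Trmt112 shares 360 exon bases with Prdx5 and 73 with Esrra on the other strand, and Mettl5 119 with Ssb.

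Pcif1 (ENSMUSG00000039849.7) had higher means on the high fat diet. In males it had 11.5, 14, 13.8 and 11.1 CPM on the high fat and 10.3, 10.6, 10 and 11 CPM on the normal diet. These do not overlap, though by a narrow margin, and the log2 fold change of 0.27 ± 0.11 was not called (edgeR adjusted p = 0.128). In females the values were 12.4, 14.4, 13.1 and 12.6 CPM against 10.7, 13.8, 10.5 and 12 CPM, a change of 0.16 ± 0.11 (edgeR adjusted p = 0.378). That female change was called without TMM factors and in TPM without centring. Without TMM factors the male change was called as well (0.36, edgeR adjusted p = 0.0382). Between the sexes its log2 differences were 0.17 ± 0.11 on the normal and 0.06 ± 0.11 on the high fat diet, neither called. Pcif1 shares 410 exon bases with Zfp335 on the other strand. None of 6 other genes of cap formation and m6Am methylation was called for diet. Rnmt, the cap guanine methyltransferase, was lower in females than in males on the high fat diet (-0.47, edgeR adjusted p = 0.00674). In log2(TPM + 1) none of the 6 was called lower in that contrast.

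No member was called in the test of the diet change between the sexes, for which 0.677% of all tested genes were called. This count was 0 in each of 28 settings, which include DESeq2 and limma, and Dkc1 was the 1 member with an unadjusted edgeR p under 0.05. None of the listed pathway genes was called in it by the main edgeR test either. Over the settings, at most 1 gene of the m1A list was called lower, as by DESeq2, and at most 1 ribosome biogenesis gene higher. The CPM of the groups did not overlap between the sexes for 2 of 10 members on the normal diet (Nsun2 and Trmt6), against 22% of tested genes. On the high fat diet they did not overlap for 4 (Nsun2, Trmt6, Trmt61a and Dkc1), against 22.7%.

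Covariation between libraries within groups was described after each group mean was subtracted, over 16 libraries that differ in depth, and it carries no test. The members' closest genes were found among 10826 genes. Trmt112 was closest to Rack1 (r = 0.95), a protein of the small ribosomal subunit, and to Rpl12 (r = 0.94). Ribosomal protein genes made up 14 of its 20 closest genes, and none of the 20 closest of any other member. For Nsun2 these were Kiz (0.86) and Ift46 (0.84), and for Adar Tnfaip1 (0.85) and Cep192 (0.84). The next 3 for Adar, named after their values were seen, were the matrix genes Col1a2, Loxl2 and Col6a3 (0.83 each). Dkc1 was closest to Socs5 (0.79) and Smarce1 (0.78), and Pus7 to Mapk14 (0.93) and Fbxo45 (0.92). Mettl5 was closest to Amn1 (0.92) and Gm44777 (0.91), Alyref to Imp4 (0.89) and Hspb11 (0.84), and Pcif1 to Gm4737 and Sucla2 (0.87 each). Trmt6 was closest to Anapc4 and Wdr83 (0.83 each) and Trmt61a to LTO1 and Zfp719 (0.86 each). Among the 45 pairs of members, Mettl5 with Trmt112 had the highest r (0.57), although Trmt112 ranked 1059 among 14780 genes by likeness to Mettl5. Trmt6 with Trmt61a had r = 0.21. Between Dkc1 and its partners r was 0.43 for Gar1, 0.1 for Nop10 and 0.02 for Nhp2.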

How the data were processed

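PolyA RNA of 16 mouse liver libraries was sequenced on an Illumina NovaSeq after preparation with a NEBNext Ultra kit, per the labels' protocols. Reads were processed with STAR and RSEM on GRCm39, per the submitters' processing notes. Versions, the annotation release and the strand setting are not given in the sources used here. The authors deposited RSEM expected counts per gene, of which 4.89% were not whole, and TPM values per gene.

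Expected counts were rounded and genes filtered with filterByExpr over the 4 groups, which left 14781 genes with 99.94% of the counts. They were fitted with edgeR 4.0.16 (R 4.3.3; TMM factors, robust quasi-likelihood, 1 mean per group over all 16 libraries) in 5 contrasts. Adjustment was by Benjamini-Hochberg with a threshold of 0.05. Standard errors are the log2 fold change over the square root of F. Alternatives were DESeq2 1.42.0, limma 3.58.1 on log2(TPM + 1) and log2(TPM + 0.1), other filters and factors, no robust settings, only the groups compared, male high fat diet replicates 2 and 3 averaged, leaving out each library, and a replicate block. Those without scaling factors and with TPM centred on the median were added after the data were seen. The scripts were tested on simulated data.

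Symbols came from GENCODE M21 for 51487 of 78317 gene identifiers, and genes without a symbol held 0.617% to 1.65% of a library's counts. Exon overlaps were taken from the same annotation, and promoter windows from RefSeq on GRCm38.p6. Total expected counts per library were 22228115 to 41420589.

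The members, the pathway and marker lists and the tests were chosen with earlier results of these data known. All members are described. Of the lists, genes called in a contrast may be named, those of smallest p first, with the paralogs and partners of members in any case. Likeness names the 2 genes of highest Pearson r per member among those whose mean log2 CPM reached 1.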

Additional observations from a re-analysis of the deposited data

Results flagged for a closer look

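In 6 of 184 groups of 4 libraries, over 46 named genes, 1 library lay far from the other 3, with a gap of more than 0.829 of the group's range. Chance gives about 1 in 20 such groups when groups are independent. Many of these genes were named for a small p in the same data, and all share libraries, so the 6 cannot be judged against that rate. Among the members there were 2 of 40. Nsun2 was lowest in replicate 4 of the females on the normal diet, at 79.6 CPM against 83.6 to 84.3 CPM in the other 3, and this library still lay above every female high fat diet library. Adar was highest in replicate 4 of the males on the high fat diet, at 25.1 CPM against 18.8 to 19.7 CPM, and without it the male rise was 0.37 on the log2 scale (edgeR adjusted p = 0.0499). Nop10 was highest in replicate 1 of the males on the normal diet, at 41.4 CPM against 30.2 to 30.8 CPM. Ddx58 was highest in replicate 4 of the females on the high fat diet, at 43.8 CPM against 31.7 to 33.4 CPM. Nsun4 was lowest in replicate 1 of the females on the normal diet, at 16.1 CPM against 18.4 to 18.7 CPM. Wdr12 was highest in replicate 4 of the males on the high fat diet, at 19.9 CPM against 17.4 to 17.8 CPM.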

How the results depend on the processing

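The calls of Adar in females and Nsun2 in males held in all 29 alternatives, that of Adar in males in 25, of Nsun2 in females in 25, and of Dkc1 between the sexes on the high fat diet in 28. Depth limits Trmt61a most, with as few as 37 counts in a library.

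For diet in females, 4 members were called in log2(TPM + 1), log2(TPM + 0.1), log2(TPM + 1) with no filter and without scaling factors, namely Pcif1, Trmt6, Dkc1 and Adar. The genes called there were 2608 in log2(TPM + 1) and 2690 without scaling factors (2318 higher and 372 lower). With TPM centred on the median they were 443 higher and 1405 lower. In males 1 member, Nsun2, was called in the first 3 of these settings. Without scaling factors Pcif1, Nsun2 and Adar were called, and with centred TPM Trmt112, Nsun2 and Dkc1, while Adar was not (0.37, limma, adjusted p = 0.076). In log2(TPM + 1) with no filter 770 genes were called in males. The split was 776 higher and 406 lower in log2(TPM + 1), 1358 and 472 without scaling factors and 506 and 1417 with centred TPM. The interaction gave 337 genes by DESeq2, 63 in log2(TPM + 0.1), 40 in log2(TPM + 1) with no filter and 58 with the similar male replicates 2 and 3 averaged. It uses all groups, so it had no separate fit of only the groups compared. Between the sexes on the normal diet, no member was called with no filter on low counts, and 1522 genes in log2(TPM + 1) or 1033 with no filter on TPM were called. On the high fat diet, 1 member (Dkc1) was called with RLE factors, a stricter filter, only the groups compared (1958 genes), replicates 2 and 3 averaged or centred TPM, and 0 with no filter. The split there was 2765 higher and 714 lower in log2(TPM + 1) and 2318 and 1048 without scaling factors. The cause of these shifts was not tested.

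When each library was left out in turn, the genes called were 947 to 1874 for diet in females, 1113 to 2043 in males, 51 to 176 for the interaction, 1325 to 2766 between the sexes on the normal and 1974 to 3062 on the high fat diet. The members called were 2 to 2, 2 to 3, 0 to 0, 1 to 2 and 1 to 2.

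The labels do not say that replicate numbers pair libraries. Deviations of same-numbered libraries correlated between -0.159 and 0.137 in the diet groups of a sex, with 1 of 8 pairs over 0.1, and between -0.159 and 0.18 over all pairs of groups, with 4 of 24 over 0.1. The numbers were therefore not taken as pairs. With the replicate block, 1864 genes were called for diet in females and 1980 in males, and 2 and 3 members. Between the sexes on the high fat diet 5 members were called with it, namely Trmt112, Nsun2, Trmt6, Trmt61a and Dkc1.

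Effects that changed sign were all uncalled. For diet in females, Mettl5, Trmt112 and Pus7 went to 0.07, 0.06 and 0.06 in log2(TPM + 1), with or without the filter, to 0.07, 0.06 and 0.07 in log2(TPM + 0.1), and to 0.05, 0.02 and 0.02 without scaling factors. Alyref went to -0.08 with centred TPM and to between -0.09 and 0.13 with a library left out. In males, Alyref and Trmt61a went to 0.03 each in log2(TPM + 1), with or without the filter, and to 0.05 and 0.07 in log2(TPM + 0.1), Alyref to 0.05 without scaling factors and Pus7 to -0.02 with centred TPM. With a library left out, the male changes ran from -0.11 to 0.03 for Alyref, -0.05 to 0.18 for Pus7 and -0.34 to 0.2 for Trmt61a. The interaction of Pcif1 went to 0.06 in log2(TPM + 1), with or without the filter, and to 0.07 in log2(TPM + 0.1). With a library left out it ran from -0.05 to 0.17 for Alyref and -0.51 to 0.04 for Trmt61a. Between the sexes on the normal diet, Mettl5 ran from -0.07 to 0.2 and Dkc1 from -0.01 to 0.04.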
